A study of Mus musculus with 6 samples.

Results

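The aquaporin genes Aqp1, Aqp3 and Aqp7 and the urea transporter gene Slc14a1 were measured by in situ imaging of single RNA molecules (Xenium) in blood-forming tissues of wild-type mice. The genes were chosen by name, with earlier results of these data known. All 4 were among the 477 genes of the smaller of 2 probe panels, whereas the larger panel of 5050 genes held Aqp3 and Slc14a1. Together the panels covered 5294 genes. Each condition was represented by 1 section of 5 µm, so differences between sections had no replicate check and no p-value is given.

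The smaller panel was used on a fetal liver at embryonic day 14.5 (E14.5), bone marrow from day 8 after birth (P8), a spleen labelled as adult wild type (NC) and the spleen of a mouse that received phenylhydrazine (PHZ), which destroys red cells, at 40 mg/kg into the peritoneum 2 times a day for 2 days. The label of the NC spleen names no injection, and the study's methods describe normal spleens taken at 2 months of age as well as a saline control. The larger panel was used in a later run on a fetal liver at embryonic day 13.5 (E13.5) and on bone marrow of a mouse 89 weeks old. All animals were wild-type C57BL/6 mice with no allele named, and tissues were fixed and embedded in paraffin, the 89-week bone marrow after it had been freed from the bone by cryosectioning. Each of the 4 genes had 8 probe sets on the smaller panel, but Aqp3 had 1 and Slc14a1 had 2 on the larger one, and cells were outlined differently, so levels were not compared across panels.

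Aquaporins are membrane channels for water, and Aqp3 and Aqp7 belong to the aquaglyceroporins, which also pass glycerol. Aqp1 is the water channel of the red cell membrane and is also made by many endothelial cells, while Aqp7 is known as the glycerol channel of fat cells. Slc14a1 encodes the urea transporter UT-B, which carries the Kidd blood group in human red cells. Slc4a1 (band 3, the anion exchanger of red cells), Kit (the receptor of stem cell factor on early progenitors), Kdr (a growth factor receptor of endothelial cells) and Serpina10 (a protease inhibitor secreted by hepatocytes) served as markers.

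The kept cells numbered 5254 in the E13.5 fetal liver and between 50523 and 140707 in the other sections, with medians of 62 to 191 gene transcripts per cell. Serpina10 stood at 1699 counts per 1000000 gene transcripts (CPM) in the E14.5 fetal liver and between 12.0 and 36.3 CPM in the other sections of that panel, and Slc4a1 was detected in 97.1% of the E14.5 cells. Transcripts of different lineages shared cell outlines there, since 97.0% of the E14.5 cells held at least 3 counts of an erythroid marker list (with Slc4a1, Rhd, Hemgn, Klf1 and Epor among its genes) and 59.7% at least 3 counts of a hepatocyte list (Serpina10, Ambp, Hpx, Hrg, Kng2, Gc). Groups of cells defined below by at least 3 counts of a marker list therefore overlap and are not cell types. No 2 sections shared more than 6 cell names.

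Because Aqp1 and Aqp3 were found together with erythroid genes in some sections, the 250 bases upstream of their annotated starts are shown, from RefSeq on build GRCm38.p6. Capitals mark CACCC or its complement on the other strand (GGGTG), the core of sites bound by Klf1-type factors.
Aqp1, chr6:55336049-55336298, plus strand: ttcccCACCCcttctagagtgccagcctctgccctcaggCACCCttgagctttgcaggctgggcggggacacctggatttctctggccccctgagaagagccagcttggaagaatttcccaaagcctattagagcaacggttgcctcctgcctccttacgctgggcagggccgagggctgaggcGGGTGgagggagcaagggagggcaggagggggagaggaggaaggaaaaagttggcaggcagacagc
Aqp3, chr4:41098184-41098433, minus strand: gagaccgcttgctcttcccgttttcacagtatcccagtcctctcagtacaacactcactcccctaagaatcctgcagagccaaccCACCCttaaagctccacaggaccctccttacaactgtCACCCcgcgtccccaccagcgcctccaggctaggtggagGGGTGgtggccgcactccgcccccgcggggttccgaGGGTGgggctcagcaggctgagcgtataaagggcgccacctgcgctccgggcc
Both windows held at least 1 match (3 for Aqp1 and 4 for Aqp3), as did 52.0% of 32851 RefSeq windows of these 250 bases. The windows were 62% and 64% G or C, against a median of 52.4% over all windows, which bears on how often either motif can match. Neither window held AGATAA or TGATAA on either strand, a GATA-type motif that 16.6% of all windows contained. Aqp7 (chromosome 4, 41033074 to 41048237) lies 44.5 kb from Aqp3 (chromosome 4, 41092724 to 41098183) in this annotation, and the expression patterns of these neighbors differed, as described below.

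Aqp1 was the aquaporin with the widest presence. Its transcripts made up 20578 CPM in the PHZ spleen, 16102 CPM in the P8 bone marrow, 6331 CPM in E14.5 fetal liver and 1785 CPM in the NC spleen. At least 1 transcript was seen in 54.3%, 57.6%, 45.8% and 7.26% of their cells, respectively. The PHZ spleen was thus highest by CPM and the P8 bone marrow by share of cells, and the NC spleen was lowest on both measures. Cells with at least 50 gene transcripts were also thinned to 50, to remove differences in depth. Shallower cells were left out, 15.5% in the PHZ spleen, 10.9% at P8, 1.89% at E14.5 and 15.6% in the NC spleen. In the thinned cells the shares were 47.2% in the PHZ spleen, 44.4% in the P8 bone marrow, 21.7% in the E14.5 fetal liver and 4.69% in the NC spleen.

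Slc14a1 varied less between sections. It reached 5675 CPM in the PHZ spleen, 5009 CPM in the E14.5 fetal liver, 4077 CPM in the P8 bone marrow and 2906 CPM in the NC spleen, and 35.8%, 42.8%, 28.0% and 21.3% of the cells held it. The order of the PHZ spleen and the E14.5 fetal liver depended on the scale, since the fetal liver had more Slc14a1 per cell (0.895 against 0.687). On the larger panel, 397 transcripts in the E13.5 fetal liver gave 287 CPM (95% Poisson interval 259 to 316) and 4988 in the 89-week bone marrow gave 382 CPM (372 to 393), with 6.40% and 2.93% of cells positive.

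Aqp3 was predominantly a fetal liver transcript in these sections. It stood at 1029 CPM in the E14.5 fetal liver, where 14.4% of cells held it, and at 134 CPM (127 to 141) in the NC spleen, 125 CPM (118 to 131) in the PHZ spleen and 52.8 CPM (47.4 to 58.8) in the P8 bone marrow. The intervals of both spleens overlapped. On the larger panel, Aqp3 was again higher in fetal liver than in marrow, with 72.2 CPM (100 transcripts) at E13.5 and 4.68 CPM (61 transcripts in 140707 cells) at 89 weeks.

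Aqp7 was the scarcest of the 4 on CPM in the E14.5 fetal liver and in both spleens, although detection efficiency differs between probe sets and orders between genes are therefore uncertain. It stood at 269 CPM in the E14.5 fetal liver, 232 CPM in the P8 bone marrow, 78.4 CPM in the NC spleen and 21.5 CPM in the PHZ spleen, in 4.43%, 2.12%, 0.390% and 0.260% of the cells. Single cells with several transcripts were found in the P8 bone marrow (up to 9) and the NC spleen (up to 10), but no cell of the PHZ spleen held more than 1. The 246 Aqp7 transcripts of the PHZ spleen compare with 76 for the highest of 20 negative control probes, and 66.6% of all decoded Aqp7 molecules there fell below the quality score of 20, against 29.1% of all molecules of that section.

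**Figure D1:**
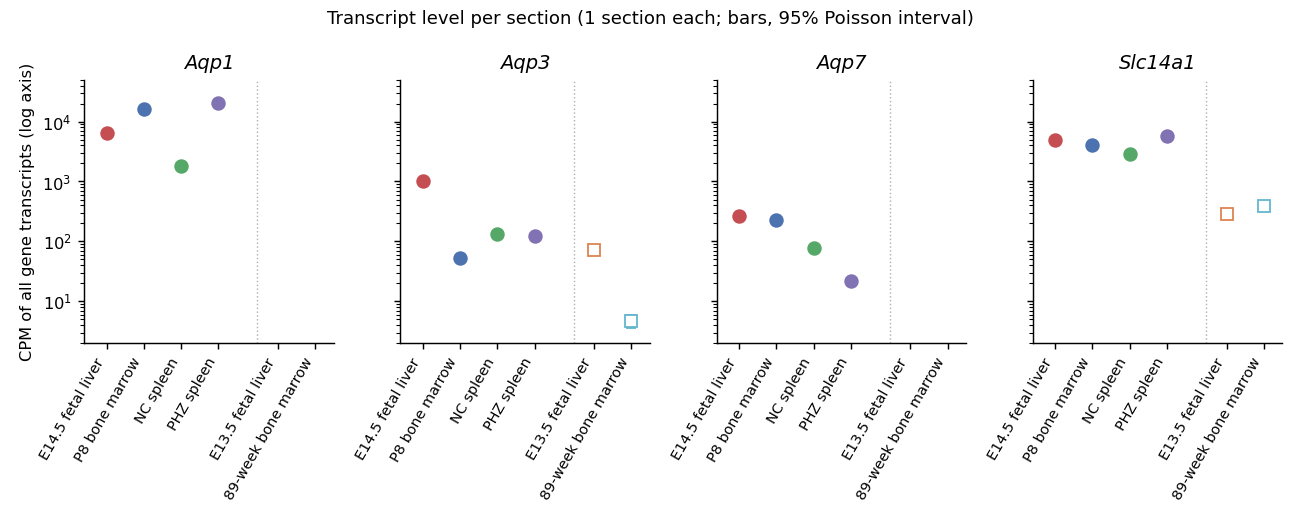
Level of each gene in each section, in counts per 1000000 gene transcripts (CPM) on a log axis. Filled circles are sections on the 477-gene panel and open squares those on the 5050-gene panel, right of the dotted line, which are not comparable with the circles; bars are 95% Poisson intervals, mostly smaller than the symbols. Aqp1 spans 1785 to 20578 CPM and Slc14a1 only 2906 to 5675 CPM among the circles, and Aqp3 is highest in fetal liver on both panels.

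Other members of these families served as a reference. Aqp4, a water channel of muscle and brain, reached 234 CPM in the P8 bone marrow and 22.9 to 34.7 CPM in the other sections of the panel. In the P8 bone marrow 7.39% of cells met a skeletal muscle list (Ttn, Actn3, Myoz1, Pygm). Which cells held Aqp4 was not tested. Aqp5 stayed between 6.12 and 8.70 CPM and Slc14a2, the urea transporter of the kidney, between 42.8 and 60.1 CPM. Aqp7 in the PHZ spleen thus lay below Slc14a2 (21.5 against 42.8 CPM). On the larger panel, Aqp2, Aqp4, Aqp5 and Aqp6 each had between 1 and 58 transcripts.

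Per cell, Aqp1 and Slc14a1 were higher in cells with 20 or more Slc4a1 transcripts than in cells without any in each of the 4 sections of the smaller panel. In the P8 bone marrow, cells without Slc4a1 held 0.532 Aqp1 transcripts on average, those with 5 to 9 Slc4a1 transcripts held 2.43, and those with 20 or more held 6.76. For Slc14a1 the same groups held 0.0712, 0.681 and 1.52. Median depth rose as well, from 95 to 215 gene transcripts per cell, which is less than the increase of either gene. At E14.5, Aqp1 stood at 0.561, 0.900, 1.10, 1.14 and 1.53 from the lowest to the highest group. Slc14a1 stood at 0.490 without Slc4a1, at 0.872, 0.862 and 0.850 in the groups with 1 to 4, 5 to 9 and 10 to 19, and at 1.17 with 20 or more, while median depth rose from 128 to 245. Set against all other transcripts of the cells, Slc14a1 at E14.5 went from 3398 CPM without Slc4a1 to 6045 CPM at 1 to 4 and 5060 CPM at 20 or more, and Aqp1 from 3884 CPM to 7435 CPM at 5 to 9 and 6642 CPM at 20 or more. On that scale Slc14a1 in the NC spleen also dipped, from 2894 CPM without Slc4a1 to 2563 CPM at 1 to 4, before it reached 8143 CPM at 20 or more. The 89-week bone marrow showed a gradient of Slc14a1 from 0.0208 transcripts in cells without Slc4a1 to 0.413 in those with 20 or more, over a rise of depth from 53 to 360.5. In the E13.5 fetal liver Slc14a1 went from 0.0665 without Slc4a1 to 0.121 at 10 to 19, at median depths of 202 and 312.

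Aqp3 rose with Slc4a1 in the E14.5 fetal liver, from 0.0480 to 0.314 transcripts per cell, and in the P8 bone marrow, from 0.00240 to 0.0156, both over a smaller rise of depth. At matched depth (observed over expected cells with both genes, as explained below) the log2 values were 0.02 and 0.33 (95% Poisson interval 0.16 to 0.50). The first could not rise far above 0, since 97.1% of the E14.5 cells held Slc4a1. Of Slc4a1-positive cells there 14.7% held Aqp3, against 4.13% of Slc4a1-negative cells. Set against all other transcripts, Aqp3 at E14.5 went from 333 CPM without Slc4a1 to 1359 CPM at 20 or more. The rise in the PHZ spleen, from 0.0120 to 0.0386, was no larger than that of depth (71 to 256), and the value at matched depth was -0.01 (-0.10 to 0.08). In the NC spleen Aqp3 did not rise, with 0.0130 in cells without Slc4a1 and a single transcript among the 213 cells with 20 or more, and the value was -0.31 (-0.56 to -0.06). Aqp7 was lower in P8 bone marrow cells with 20 or more Slc4a1 transcripts than in those without any (0.0169 against 0.0607), with a value at matched depth of -0.73. At E14.5 it held no steady course per cell, with 0.0526 in cells without Slc4a1, 0.0738 at 1 to 4 and 0.0349 at 20 or more. Set against all other transcripts, Aqp7 there stood at 365 CPM without Slc4a1. It then fell from 512 CPM at 1 to 4 to 364, 222 and 151 CPM in the higher groups. The value at matched depth was -0.01 (-0.05 to 0.03), which cannot show a course among the many cells with Slc4a1.

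**Figure D2:**
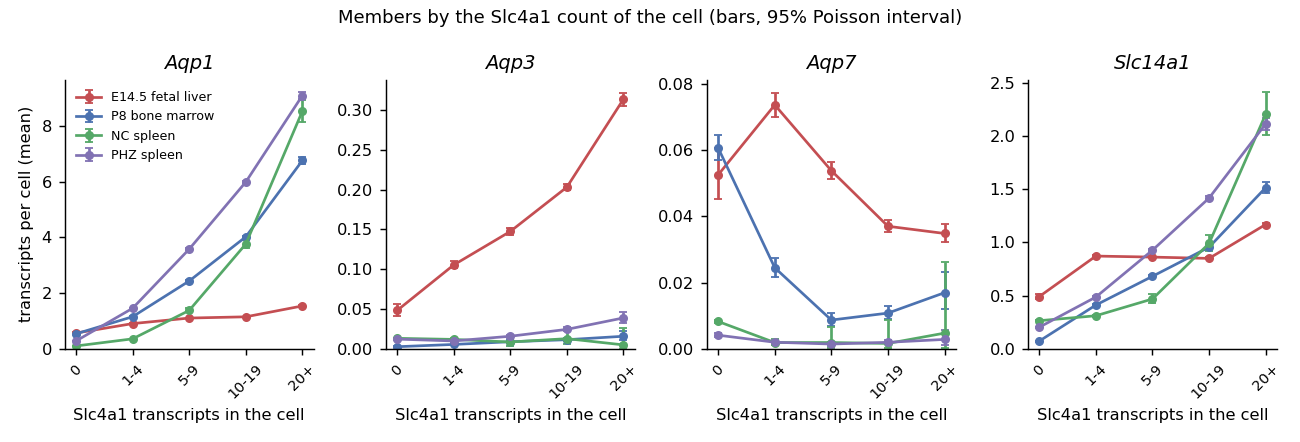
Mean transcripts of each gene per cell (vertical axes, each with its own scale) in cells grouped by their number of Slc4a1 transcripts, for the 4 sections of the 477-gene panel, with 95% Poisson intervals. Aqp1 climbs to between 6.76 and 9.10 per cell in P8 bone marrow and both spleens but only to 1.53 in E14.5 fetal liver, and Aqp7 falls from 0.0607 to 0.0169 in P8 bone marrow.

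Co-detection was then compared with the number of cells expected to hold both genes when cells of like depth are exchanged, as log2 of observed over expected. Aqp1 and Slc4a1 were found together above expectation in both spleens and the P8 bone marrow. In the NC spleen 24.3% of Slc4a1-positive and 5.08% of Slc4a1-negative cells held Aqp1 (log2 1.12, 95% Poisson interval 1.06 to 1.17). The value was 0.37 in the PHZ spleen (76.5% against 13.3%), 0.25 in the P8 bone marrow (71.2% against 27.9%) and 0.01 in the E14.5 fetal liver, where so many cells held Slc4a1 that little excess was possible. The same ceiling lowers the PHZ and P8 values, since 64.9% and 68.7% of their cells held Slc4a1 against 11.3% in the NC spleen, so the order of these values is not an order of association. Slc14a1 and Slc4a1 gave 0.41 in the P8 bone marrow (38.9% against 4.04%), 0.24 in the PHZ spleen (47.3% against 14.7%) and 0.75 in the 89-week bone marrow (7.08% against 1.60%). The value was 0.12 (-0.07 to 0.30) in the E13.5 fetal liver (6.75% against 5.55%) and 0.016 in the E14.5 fetal liver, under the same ceiling. That pair gave only 0.080 in the NC spleen (24.8% against 20.8%), and thinning turned it to -0.069.

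With Kit, Aqp1 and Slc14a1 were above expectation in each section of the smaller panel. Kit-positive cells of the E14.5 fetal liver held Aqp1 in 62.5% and Slc14a1 in 61.8% of cases, against 41.6% and 38.0% of Kit-negative cells (log2 0.23 and 0.27). On the larger panel Slc14a1 with Kit was at 0.31 (-0.29 to 0.85) in the E13.5 fetal liver. It was below expectation in the 89-week bone marrow (-0.40, -0.68 to -0.13), although 6.62% of Kit-positive and 2.88% of the shallower Kit-negative cells held it. For Aqp3 the value with Kit was largest in the P8 bone marrow, at 1.41% against 0.557% (log2 0.80, 0.45 to 1.13). It was 0.13 (0.09 to 0.17) in the E14.5 fetal liver. Intervals included 0 in the PHZ spleen (0.07, -0.12 to 0.26), the NC spleen (-0.20, -0.44 to 0.03) and the E13.5 fetal liver (-0.22, -1.84 to 1.00). Aqp7 with Kit was at 0.14 (0.06 to 0.21) at E14.5 and 0.41 (0.19 to 0.61) at P8. It was at -0.77 (-1.21 to -0.37) in the NC spleen and -0.09 (-0.68 to 0.44) in the PHZ spleen.

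With Kdr, the sign for Aqp1 and Aqp7 differed between sections. Of Kdr-positive cells of the NC spleen, 23.8% held Aqp1, as did 5.65% of Kdr-negative cells (log2 1.08, 1.02 to 1.14). There, cells with Kdr and no Slc4a1 held Aqp1 in 21.3% of cases, nearly as often as cells with Slc4a1 and no Kdr (22.5%), against 3.60% where both were absent and 36.2% where both were present. Aqp1 was also above expectation with Kdr in the E14.5 fetal liver (0.31), and at -0.02 in the P8 bone marrow and -0.20 in the PHZ spleen over all cells. There too, among cells without Slc4a1, Aqp1 was more frequent with Kdr than without it, at 52.5% against 24.6% at P8 and 33.95% against 12.2% in the PHZ spleen. Among cells with Slc4a1 it was less frequent with Kdr, at 66.0% against 71.9% and 66.4% against 77.1%. Aqp7 was found in 7.45% of Kdr-positive and 1.36% of Kdr-negative cells of the P8 bone marrow (log2 1.44, 1.31 to 1.57), and in 17.8% of cells there with Kdr and no Slc4a1. Its value with Kdr was 0.94 in the NC spleen, on 133 cells, and 0.36 (-0.39 to 1.02) in the PHZ spleen, on 18, but -0.36 (-0.48 to -0.25) in the E14.5 fetal liver. Slc14a1 was below expectation with Kdr in the 4 sections of the smaller panel, between -0.18 and -0.69, which concerns the share of cells with a transcript. By CPM among cells with Slc4a1, those with Kdr stood higher at E14.5 (5538 against 4955) and in the NC spleen (3118 against 2944). They stood lower at P8 (4737 against 5637) and in the PHZ spleen (4474 against 7043). Among cells without Slc4a1 they stood higher at E14.5 (4121 against 3197) and P8 (921 against 541) and lower in both spleens.

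Serpina10 could be read only in the E14.5 fetal liver, since the other sections held between 77 and 376 of its transcripts. Aqp7 was the member that accompanied it: 10.7% of Serpina10-positive and 2.90% of Serpina10-negative cells held Aqp7 (log2 1.06, 1.01 to 1.12). Aqp1, Aqp3 and Slc14a1 were at -0.12, -0.22 and -0.12 with Serpina10.

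**Figure D3:**
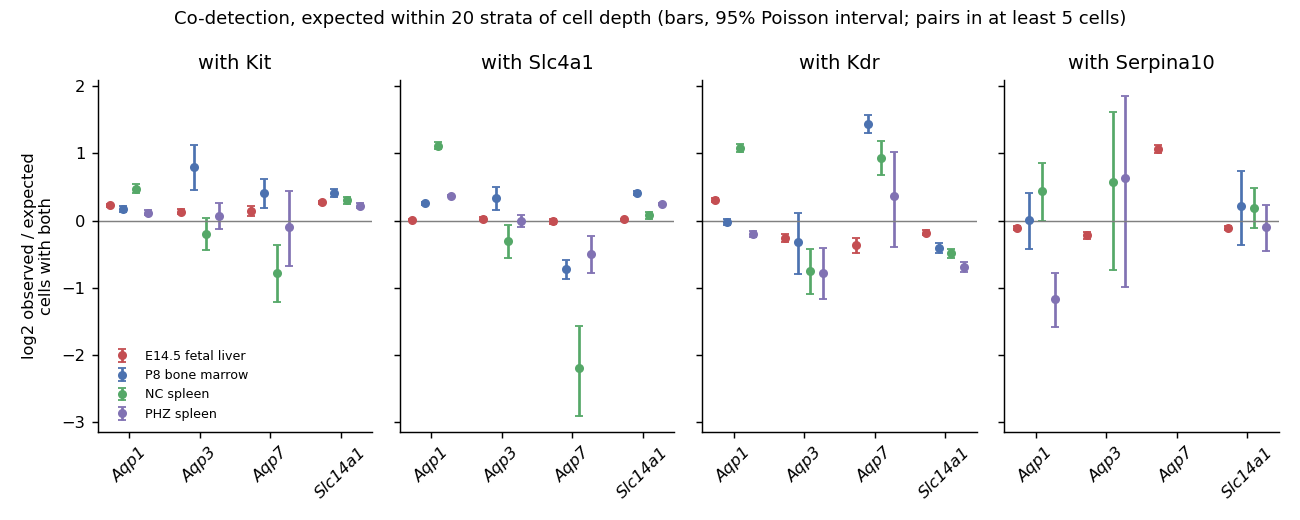
Log2 of observed over expected cells with both a member (horizontal axis) and Kit, Slc4a1, Kdr or Serpina10 (panels), in the 4 sections of the 477-gene panel; bars are 95% Poisson intervals, 0 is the expectation within strata of depth, and pairs in under 5 cells are left out. The highest points are Aqp7 with Kdr in P8 bone marrow (1.44), Aqp1 with Slc4a1 (1.12) and Kdr (1.08) in NC spleen and Aqp7 with Serpina10 in E14.5 fetal liver (1.06), and the lowest is Aqp7 with Slc4a1 in NC spleen (-2.20).

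Among themselves, Aqp1 and Slc14a1 were found together more often than expected in each of the 4 sections, by log2 0.26 at E14.5, 0.44 at P8, 0.34 in the NC spleen and 0.36 in the PHZ spleen. In the P8 bone marrow, 87.1% of cells with Slc14a1 also held Aqp1. Aqp7 and Slc14a1 were together less often than expected in the P8 bone marrow (-0.97), the NC spleen (-1.14) and, by little, the E14.5 fetal liver (-0.15, -0.21 to -0.09), whereas 86 cells of the PHZ spleen held both against 86.0 expected. Aqp1 and Aqp3 gave 0.23 at E14.5, 0.40 at P8, -0.55 in the NC spleen and 0.10 in the PHZ spleen. Aqp3 and Slc14a1 were above expectation in the same 4 sections, by 0.30, 0.67, 0.24 and 0.38.

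The genes most like each member, by Pearson's r over cells of log values scaled to 5000 per cell, differed between sections, and all of these correlations share the depth of the cells. In the PHZ spleen, Aqp1 was most like Hemgn (0.70), Rhd (0.69), Ctse (0.67) and Slc4a1 (0.66), over 94492 cells and 272 genes. Hemgn is a nuclear protein of blood progenitors and erythroblasts, and Rhd is a red cell antigen of the Rh complex. In the P8 bone marrow, Aqp1 was most like Ctse and Hemgn (both 0.58), and in the E14.5 fetal liver its highest value was with Slc14a1 itself (0.30). Slc14a1 was most like Epor, the erythropoietin receptor, in the PHZ spleen (0.45) and the E14.5 fetal liver (0.35), and most like Hemgn in the P8 bone marrow (0.45). In the NC spleen its values were far lower and its list was led by Rac2 (0.11), Laptm5 and Satb1 (both 0.10).

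Slc14a1 in the 89-week bone marrow was most like Mfsd2b (0.18), a lipid transporter of red cells and platelets, and next like the platelet and megakaryocyte genes Pf4 (0.18), Vwf, Itga2b (both 0.17) and Itgb3 (0.16). Aqp7 was most like the hepatocyte genes Slc27a2 (0.17) and Hpx (0.16) in the E14.5 fetal liver. Its list at P8 was led by Cav1 (0.31), Car3 (0.24), Ttn and Des (both 0.22), which are genes of endothelium, fat and muscle. Its list in the NC spleen was led by Pck1 (0.41), Retn (0.38) and Car3 (0.35), which are known from fat cells. The values of Aqp3 were low, up to 0.18 with Epor in the E14.5 fetal liver, and in the NC spleen its first 3 genes were the T cell genes Cd3e, Cd3d (both 0.08) and Cd8a (0.07), which at such sparse counts is no finding by itself.

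Marker lists showed where else the members were found. Megakaryocyte-list cells (Pf4, Ppbp) held Slc14a1 at 12566 CPM in the E14.5 fetal liver, where 66.7% of them were positive, and at 10906 CPM in the P8 bone marrow (59.0%). In the E13.5 fetal liver and the 89-week bone marrow these cells stood at 1501 and 1370 CPM, 1.85% and 3.98% of all cells holding 13.6% and 30.9% of the Slc14a1 transcripts. Among the spleens they were at 3883 CPM in the NC spleen, where the whole section stood at 2906 CPM, and at 3531 CPM in the PHZ spleen, below the whole section (5675 CPM). Those without any Slc4a1 transcript held 14810 CPM at E14.5, 6356 CPM at P8, 3515 CPM in the NC spleen, 1530 CPM in the PHZ spleen and 1419 CPM at 89 weeks. Cells with at least 10 Slc14a1 transcripts, a threshold chosen after the values were seen, were of this list in 84.7% of 471 in the E14.5 fetal liver, 97.6% of 85 in the P8 bone marrow, 97.4% of 38 in the NC spleen and 53.4% of 73 in the PHZ spleen, against 4.94% to 5.88% of all cells. These cells met other lists as well, being 92.1% to 100% erythroid-list, 78.9% to 94.5% erythroid progenitor-list (Kit, Gata1, Cd34) and 65.8% to 89.5% endothelial-list (Kdr, Tie1, Clec14a, Plvap, Eng, Gpihbp1), so the megakaryocyte list alone does not describe them. Of all cells, 6.38% to 97.0% met the erythroid, 2.47% to 38.3% the erythroid progenitor and 11.0% to 13.4% the endothelial list. The erythroid share of 100% at E14.5 was thus near that of all cells there (97.0%). The single cell with the most Slc14a1, in the NC spleen, held 82.

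T cell-list cells (Cd3d, Cd3e, Cd8a) of the NC spleen held a large part of 2 members. They were 22.4% of the cells and had 58.4% of the Aqp3 transcripts, at 326 CPM with 3.16% of cells positive, and 29.0% of the Slc14a1 transcripts, at 3522 CPM with 28.0% positive. Macrophage-list cells (C1qa, C1qb, C1qc), 36.0% of the cells, had 37.9% of the Slc14a1 transcripts, at 2352 CPM, below the whole section. Among NC spleen cells without Slc4a1, T cell-list cells stood at 3599 CPM of Slc14a1, below erythroid-list (9051 CPM) and erythroid progenitor-list cells (5248 CPM), near megakaryocyte-list cells (3515 CPM) and above macrophage-list (2160 CPM), endothelial-list (1875 CPM) and fat-linked cells (Retn, Car3, Pck1; 170 CPM). The T cell-list cells without Slc4a1 held Aqp1 at 492 CPM, the lowest of the lists with at least 50 such cells.

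Aqp7 was found in different surroundings in each tissue. In the E14.5 fetal liver, hepatocyte-list cells were 59.7% of all cells and held 91.4% of its transcripts, at 370 CPM. Its level was higher in cells that met the fat-linked list (688 CPM), which does not make them fat cells. It was also higher in cells of a mesothelium or epithelium list (Upk1b, Upk3b, Krt8, Krt19, Epcam; 613 CPM), which were 14.5% of cells and held 41.9% of its transcripts. All 41 cells with at least 3 Aqp7 transcripts met the hepatocyte and the erythroid list (the latter met by 97.0% of all cells), and 80.5% met the mesothelium or epithelium list. In the P8 bone marrow, endothelial-list cells without Slc4a1 held 45.3% of its transcripts at 2210 CPM, with 21.6% of them positive, and skeletal muscle-list cells (Ttn, Actn3, Myoz1, Pygm) without Slc4a1 stood at 1359 CPM. The 101 cells there with at least 3 Aqp7 transcripts met several lists at once: 98.0% the stroma list (Col1a1, Col1a2, Lum, Dpt), 90.1% the endothelial, 73.3% the skeletal muscle, 69.3% the fat-linked and 61.4% the erythroid progenitor list. Of all cells of the section, 53.8%, 11.2%, 7.39%, 4.40% and 11.6% met these lists. The erythroid list was met by 4.95% of the 101 cells, against 64.1% of all cells. In the NC spleen, 483 fat-linked cells, 0.446% of the section, held 620 of the 812 Aqp7 transcripts, and 48.2% of them were positive. The transcripts were correspondingly gathered in space, with 57.5% in the top 1% of squares of 50 µm as ranked by Aqp7 itself. Any sparse gene scores high on this measure. Aqp3, with 1383 transcripts in this section, had 7.74%, and the 246 Aqp7 transcripts of the PHZ spleen had 23.2%. All gene transcripts, in squares ranked by their total, had 1.60%. Only 48.8% of Aqp7 transcripts there lay over a nucleus, rank 52 from the lowest of 464 genes, whereas Slc14a1 was at 71.4% and the median gene at 65.5%.

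**Figure D4:**
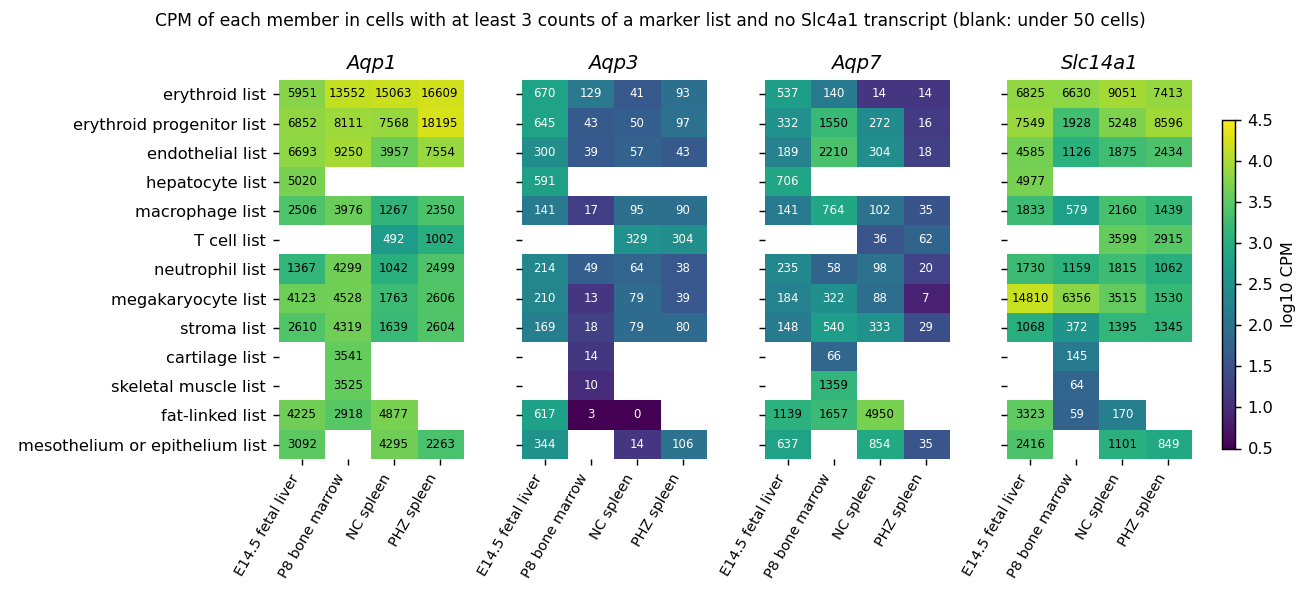
Level of each gene, in CPM (numbers) and as log10 CPM (color), in cells with at least 3 counts of a marker list (rows) and no Slc4a1 transcript, in the 4 sections of the 477-gene panel (columns). Blank fields had under 50 cells, and lists overlap. Slc14a1 is highest in the E14.5 megakaryocyte-list cells (14810), Aqp3 in the NC spleen in T cell-list cells (329) and Aqp7 in the fat-linked cells of the NC spleen (4950).

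The PHZ spleen was set against the NC spleen, on the same slide and panel, to see how the members stood after red cell destruction. Aqp1 was 11.5-fold higher in the PHZ spleen (20578 against 1785 CPM, log2 3.53, 95% counting interval 3.51 to 3.55), the 10th largest rise among 472 genes. Slc14a1 was 1.95-fold higher (5675 against 2906 CPM, log2 0.97, 0.95 to 0.99). Aqp3 was at 125 against 134 CPM (log2 -0.10, -0.21 to 0.01), an interval that includes no difference. Aqp7 was 3.64-fold lower (21.5 against 78.4 CPM, log2 -1.87, -2.08 to -1.66).

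At least 2-fold higher was thus 1 of the 4 members, where 12.9% of the 472 genes were, and at least 2-fold lower was 1 of 4, where 27.5% were. Both counts depended on the setting: Slc14a1 passed 2-fold per cell (log2 1.31), without Hbb-bt (1.02), in cells with Slc4a1 (1.21) and over the nucleus (1.01), and Aqp7 was under 2-fold over the nucleus (-0.93), in cells with Slc4a1 (-0.12) and without fat-linked cells (0.20). The median over all genes was log2 -0.45. The 11 genes reported here of a wider erythroid list (Slc4a1, Rhd, Hemgn, Klf1, Epor, Car2, Slc25a37, Tfrc, Fech, Gata1 and Hbb-bt) were at least 2-fold higher, with a median of 3.33, among them Slc4a1 (11.2-fold), Rhd (24.0-fold), Hemgn (18.6-fold) and Klf1 (17.9-fold), an erythroid transcription factor. That list was chosen with earlier results of these data known, so its direction is no independent evidence. Of the markers, Kit stood at 1924 against 1934 CPM, Kdr was 2.43-fold lower and Serpina10 1.81-fold lower at few counts. Aqp4, Aqp5 and Slc14a2 were 1.45-, 1.39- and 1.35-fold lower.

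**Figure D5:**
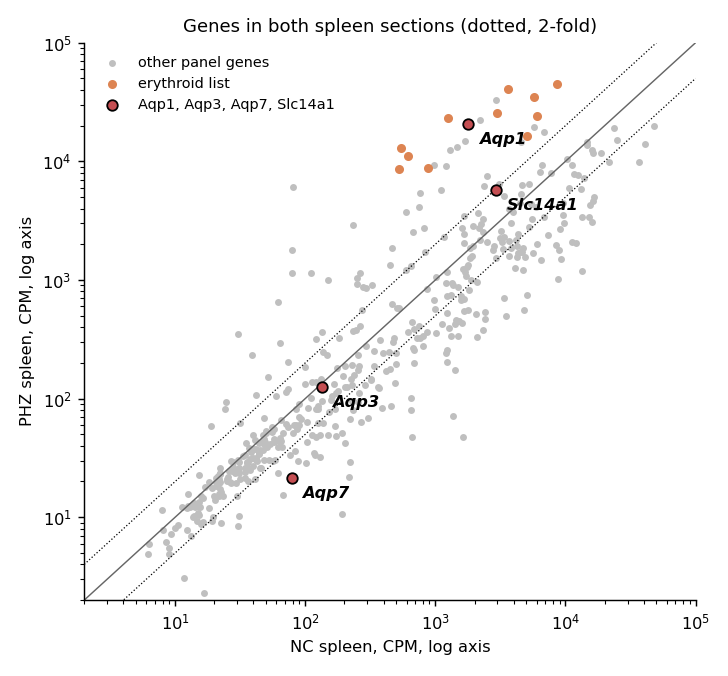
Level of 472 genes in the NC spleen (horizontal) and the PHZ spleen (vertical), in CPM on log axes, 1 section each; the solid line marks equal levels and the dotted lines 2-fold differences. Orange points are the 11 genes reported of the wider erythroid list. Aqp1 lies among them at 11.5-fold higher, Slc14a1 just under the upper dotted line at 1.95-fold, Aqp3 close to the line of equality and Aqp7 below the lower dotted line at 3.64-fold lower.

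The makeup of the sections moved with these values. Erythroid-list cells were 60.7% of the PHZ spleen and 6.38% of the NC spleen, T cell-list cells 4.33% and 22.4%, and fat-linked cells numbered 3 and 483, while macrophage-list cells were 35.2% and 36.0%. Within erythroid-list cells, Aqp1 was 2.83-fold higher in the PHZ spleen (28093 against 9919 CPM) and Slc14a1 1.69-fold (7313 against 4335 CPM). Aqp3 was 2.03-fold higher there (125 against 61.6 CPM, from 67 transcripts in the NC spleen), although it hardly differed over the whole sections.

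At a matched number of Slc4a1 transcripts, the difference between the spleens was not constant, and as a ratio it was smallest at 20 or more. Cells without Slc4a1 held 0.276 Aqp1 transcripts in the PHZ spleen and 0.0951 in the NC spleen. Cells with 1 to 4 held 1.45 Aqp1 transcripts in the PHZ spleen and 0.352 in the NC spleen, and cells with 10 to 19 held 5.99 and 3.76. Cells with 20 or more held 9.10 (8.99 to 9.21, 2872 cells) and 8.54 (8.15 to 8.94, 213 cells). Slc14a1 was lower in the PHZ spleen in cells without Slc4a1 (0.201 against 0.263) and higher in those with 1 to 4 (0.486 against 0.310), 5 to 9 (0.927 against 0.468) and 10 to 19 (1.42 against 0.991). Cells with 20 or more held 2.12 Slc14a1 transcripts (2.06 to 2.17) in the PHZ and 2.21 (2.01 to 2.42) in the NC spleen, intervals that overlap.

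Cells without an Slc4a1 transcript were compared list by list, although some of them still met the erythroid list. Aqp1 was higher in the PHZ spleen in endothelial-list cells (7554 against 3957 CPM, 1.91-fold), macrophage-list cells (2350 against 1267 CPM, 1.85-fold), neutrophil-list cells (S100a9, Csf3r, Mmp8, Mmp9, Cxcr2; 2499 against 1042 CPM, 2.40-fold) and T cell-list cells (1002 against 492 CPM, 2.04-fold). Aqp1 was 1.59-fold higher in stroma-list cells, 1.48-fold in megakaryocyte-list cells, 2.40-fold in erythroid progenitor-list cells and 1.10-fold in erythroid-list cells. In the NC spleen 2034 erythroid progenitor-list cells and only 825 erythroid-list cells lacked Slc4a1. Most of the former thus did not meet the erythroid list, and values of this list cannot be read as those of erythroid progenitors. In mesothelium or epithelium-list cells, 196 and 435 in number, Aqp1 was 1.90-fold lower (2263 against 4295 CPM). The part of transcripts from neighboring erythroid cells in these values was not tested. Slc14a1 moved both ways among the same cells. It was lower in the PHZ spleen in the macrophage list (1439 against 2160 CPM), the T cell list (2915 against 3599 CPM), the neutrophil list (1062 against 1815 CPM), the erythroid list (7413 against 9051 CPM) and the megakaryocyte list (1530 against 3515 CPM, 2.30-fold). It was higher in the endothelial list (2434 against 1875 CPM, 1.30-fold) and the erythroid progenitor list (8596 against 5248 CPM, 1.64-fold). The intervals of the stroma and of the mesothelium or epithelium list included no difference. Aqp3 in T cell-list cells stood at 304 against 329 CPM (log2 -0.12, -0.45 to 0.21), an interval that includes no difference. In megakaryocyte-list cells it was lower in the PHZ spleen (39.0 against 79.2 CPM, log2 -1.02, -1.95 to -0.17), on 16 and 45 transcripts. The intervals of the other lists with enough transcripts to compare included no difference.

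Aqp7 was lower in the PHZ spleen in several overlapping lists. Among cells without Slc4a1 it stood at 18.2 against 304 CPM in endothelial-list and 28.6 against 333 CPM in stroma-list cells. It was at 34.9 against 102 CPM in macrophage-list and 20.4 against 98.2 CPM in neutrophil-list cells. T cell-list cells went the other way (62.2 against 35.8 CPM, log2 0.80, -0.03 to 1.55). The 96 NC spleen cells with at least 3 Aqp7 transcripts met the fat-linked (99.0%), endothelial (65.6%), stroma (62.5%) and macrophage list (51.0%). Of all cells there, 0.446%, 11.0%, 9.48% and 36.0% met these lists. Fat-linked cells held 620 Aqp7 transcripts in the NC spleen, and the 3 in the PHZ spleen held none. A count of 0 in so few cells sets no useful limit. Without the fat-linked cells, an alternative chosen after the values were seen, Aqp7 was at log2 0.20 (-0.08 to 0.48) between the spleens. The genes of that list were the 3 most like Aqp7 in the NC spleen, so leaving these cells out was bound to lower Aqp7 there. It removed 620 of the 812 NC transcripts. The highest negative control probes stood at 77 in the NC and 76 in the PHZ spleen, so the remaining ratio compares low counts. Whether the PHZ spleen lacked the tissue of the fat-linked cells or the section did not cross it cannot be told apart with 1 section each.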

How the data were processed

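The authors deposited, for 6 Xenium sections, raw transcript counts, by gene and outlined cell, made by the instrument's software. For the 4 sections on the smaller panel they also deposited single transcripts with a quality score, a logarithmic measure of decoding certainty, and a mark for molecules over a nucleus; the deposited counts hold molecules with a score of at least 20. The genome build behind the probes is not given in the sources used here. Cells with at least 5 detected genes were kept, as the study's methods state.

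Counts were summed per section and divided by all gene counts (CPM). Section totals ran from 1384754 to 20952120 gene transcripts. Intervals are exact Poisson (counts), exact binomial (shares) or conditional binomial (ratios) at 95% confidence, covering counting error only. Expected co-detection was summed over 20 strata of cell depth. Likeness used genes with at least 1000 counts in the section, naming the first 5. The 2-fold background used genes with at least 100 counts over both spleens. Groups of cells needed at least 3 counts of a list. The genes named are the members, the 4 markers, other genes of both families, the erythroid list and the likeness lists, of which some genes are not reported here. Members and lists were chosen with earlier results of these data known. No correction was made for transcripts of neighboring cells, and doublets were not called. The ratio and co-detection steps were tested on simulated data. Alternatives were counts per cell and per mm2, totals without Hbb-bt, Slc4a1-positive cells, cells with at least 20 counts, molecules over the nucleus, no strata, markers at 3 counts, thinning to 50 and, chosen after seeing the data, leaving out fat-linked cells and molecules of any quality. Python 3.11.15, numpy 2.4.6, scipy 1.17.1 and pandas 2.3.3 were used.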

Additional observations from a re-analysis of the deposited data

How the results depend on the processing

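No paired analysis was possible because each condition was 1 section. Between the spleens, the log2 difference of Aqp1 (3.53) was 3.87 per cell, 3.07 per mm2, 3.58 without Hbb-bt, 2.21 in cells with an Slc4a1 transcript, 3.85 over the nucleus and, in the alternatives chosen after seeing the data, 3.24 with molecules of any quality and 3.56 without fat-linked cells. Slc14a1 (0.97) was 1.31 per cell, 0.51 per mm2, 1.02 without Hbb-bt, 1.21 in cells with Slc4a1 and 1.01 over the nucleus, so its side of 2-fold depended on the scale. Aqp7 (-1.87) was -1.53 per cell, -2.32 per mm2, -0.12 in cells with Slc4a1, -0.93 over the nucleus, -1.0025 at any quality and 0.20 without fat-linked cells. Aqp3 (-0.10) changed sign, at 0.24 per cell, -0.55 per mm2, 0.51 in cells with Slc4a1, 0.039 over the nucleus and 0.15 at any quality.

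Of the pairs of a member and a section, counted whether or not the interval included 0, those above 0 with Kdr numbered 10 without strata in place of 6 of 20, and those with Serpina10 (9 of 16) were 2 with the marker at 3 counts and 5 after thinning. No cell of the P8 bone marrow or the PHZ spleen held more than 1 Serpina10 transcript, and 1 cell of the NC spleen held 3. Pairs of the first 2 sections thus could not be above 0 with the marker at 3 counts, so this fall was in part fixed in advance. Without strata, Aqp1, Aqp3 and Slc14a1 with Serpina10 at E14.5 turned to 0.052, 0.036 and 0.082, Aqp1 with Kdr in the PHZ spleen to 0.052 and Slc14a1 with Kit in the 89-week bone marrow from -0.40 to 1.18. Thinning turned that last pair to 0.45, and Slc14a1 with Slc4a1 to -0.015 at E14.5 and -0.069 in the NC spleen. It left out the shallower cells, which were 41.4% of the 89-week bone marrow. With the marker at 3 counts, Aqp7 with Kit in the P8 bone marrow turned from 0.41 to -0.20. Per cell, the log2 difference of Slc14a1 was -0.38 from the E14.5 fetal liver to the PHZ spleen (0.18 by CPM) and -1.09 from the E13.5 fetal liver to the 89-week bone marrow (0.42 by CPM). The cause of the other changes was not tested.

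With 1 section per condition, differences between mice, blocks and sections could not be separated from those between conditions. Spill-over of transcripts between touching cells limits each statement on co-detection, also in the E14.5 fetal liver, where marker lists overlapped widely. Its extent was not measured in any section.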

Other observations

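Aqp1 molecules were decoded with unusual certainty. In the NC spleen 1.35% of them fell below a quality score of 20, against 9.45% of all molecules of that section, and in the other 3 sections with single-molecule data the share was between 3.97% and 7.87%, against up to 29.1% of all molecules. Aqp3 stood at 46.4% in the PHZ spleen and 18.3% in the NC spleen, where the median gene stood at 39.3% and 15.7%. The difference between the spleens was thus not particular to Aqp3. A limit on quality removes unequal parts of Aqp1 and Aqp3.

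Slc14a1 was spread over nearly the whole of both spleens, in 94.0% of squares of 50 µm of the NC spleen and 93.6% of those of the PHZ spleen. Aqp1 was found in 79.3% and 97.6%, and Aqp7 in 11.6% and 7.73%.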
